A study of Mus musculus with 4 samples.

Results

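The Th2 cytokine locus was examined through 5 genes, Il4, Il13, Il5, Rad50 and Kif3a, of 28625 gene symbols counted in the series. They were chosen by their position next to each other on mouse chromosome 11, and all 5 had counts in both sorted populations. Single-cell 3′ RNA was counted in droplets from CD4 T cells of the mediastinal lymph node, 7 days after mice received Alternaria alternata extract (10 µg) with NP-OVA (25 µg) by the nose. Alternaria is a mould that provokes allergic airway responses, and NP-OVA is a hapten coupled to ovalbumin. After sorting, all cells were stimulated for 30 minutes with PMA and ionomycin, which bypass the T-cell receptor, so every cytokine value below is a value after restimulation. No unstimulated or unimmunised group was analysed here.

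The Tfh sort kept TCRβ+ CD4+ CD44+ cells of 3 C57BL/6 mice with the Tfh surface proteins PD-1 and CXCR5. The reporter sort kept TCRβ+ CD4+ CD44+ cells that were GFP+, from 3 mice of the C57BL/6 4GET line, in which GFP is expressed from the Il4 gene. GFP thus chose cells by the activity of 1 of the 5 genes, and GFP protein can outlast the transcript. The Tfh sort was run with version 2 chemistry on a HiSeq 4000 and the reporter sort with version 3 chemistry on a NovaSeq. Strain, gate, chemistry and sequencer therefore all differ between the sorts and cannot be told apart, so no test was made between them. The mouse, read from its hashtag antibody, is the replicate (n = 3 per sort). The p-values come from fits to sums per mouse. Those fits share information on spread across genes, so a gene's own spread over 3 mice can be wider than its standard error (SE).

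Il4, Il13 and Il5 encode the secreted type 2 cytokines. IL-4 drives Th2 differentiation and, from follicular helper T (Tfh) cells, B-cell class switching. IL-13 acts on airway epithelium and smooth muscle, and IL-5 supports eosinophils. Rad50 encodes a subunit of a DNA double-strand break repair complex and Kif3a a kinesin motor subunit, both broadly expressed, and they lie within the same stretch of chromosome. A control region for the cytokine genes lies inside Rad50, and GATA3, STAT6 and NFAT proteins are known regulators of the locus.

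In the GENCODE M21 annotation of GRCm38, the 5 genes span 158 kb of chromosome 11. Kif3a (chr11:53567379-53601967, forward strand) is followed after 1.01 kb by Il4 (chr11:53602982-53618669, reverse strand). Il13 (chr11:53631324-53634702, reverse strand) starts 16.0 kb from the Il4 start, with 12.7 kb between the genes. Rad50 (chr11:53649519-53707319, reverse strand) covers 57.8 kb between Il13 and Il5. Il5 (chr11:53720794-53725106, forward strand) lies 13.5 kb past Rad50, with its start 86.1 kb from that of Il13. Il4 and Il13 are thus near neighbours read in the same direction, whereas Il5 is read the opposite way on the far side of Rad50.

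**Figure D1:**
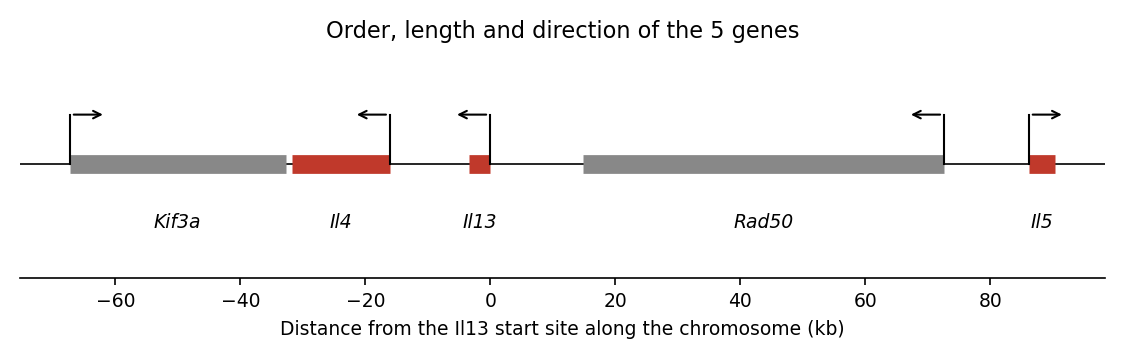
Map of the 5 genes, with distance from the Il13 start site in kb along the x axis and arrows for the direction of transcription. Il4 starts 16.0 kb from Il13 and Il5 starts 86.1 kb away, with the 57.8 kb of Rad50 between Il13 and Il5.

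Of the 5 members 4 matched a RefSeq start window, all but Rad50. They are shown because the cytokine genes and Kif3a differ in base composition and in the letters bound by NFAT, the family of factors that ionomycin activates through calcium. Each runs 5′ to 3′ on the gene's own strand from 250 bases before to 50 bases after the start (RefSeq, GRCm38.p6), with the NFAT core letters GGAAA, or TTTCC where the core is on the other strand, in capitals. The windows are chr11:53618616-53618915 for Il4 and chr11:53634653-53634952 for Il13, both on the reverse strand. Those of Il5 and Kif3a are chr11:53720544-53720843 and chr11:53567119-53567418, on the forward strand.
Il4: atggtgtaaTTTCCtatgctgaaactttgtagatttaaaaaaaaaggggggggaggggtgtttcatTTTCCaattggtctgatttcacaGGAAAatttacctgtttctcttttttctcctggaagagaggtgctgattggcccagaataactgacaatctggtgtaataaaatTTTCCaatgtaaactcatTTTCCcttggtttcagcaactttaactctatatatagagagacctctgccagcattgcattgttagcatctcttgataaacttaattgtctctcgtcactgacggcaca
Il13: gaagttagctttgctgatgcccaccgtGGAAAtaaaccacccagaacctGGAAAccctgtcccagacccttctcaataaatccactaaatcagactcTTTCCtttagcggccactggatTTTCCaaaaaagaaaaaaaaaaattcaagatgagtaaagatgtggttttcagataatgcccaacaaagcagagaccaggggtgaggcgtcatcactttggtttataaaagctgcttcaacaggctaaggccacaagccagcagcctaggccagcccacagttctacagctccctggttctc
Il5: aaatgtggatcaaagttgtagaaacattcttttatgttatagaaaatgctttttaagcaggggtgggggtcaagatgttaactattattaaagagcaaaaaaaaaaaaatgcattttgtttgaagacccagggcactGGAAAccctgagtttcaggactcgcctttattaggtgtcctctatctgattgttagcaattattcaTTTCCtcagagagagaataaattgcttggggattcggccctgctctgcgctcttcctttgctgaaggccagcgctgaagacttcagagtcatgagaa
Kif3a: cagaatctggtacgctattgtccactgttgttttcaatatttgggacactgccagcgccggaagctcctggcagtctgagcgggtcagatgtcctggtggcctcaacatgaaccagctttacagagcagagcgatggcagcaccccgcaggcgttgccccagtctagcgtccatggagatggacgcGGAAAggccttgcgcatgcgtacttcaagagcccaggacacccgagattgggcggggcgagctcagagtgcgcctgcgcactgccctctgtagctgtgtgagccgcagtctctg

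The NFAT core letters occurred 5 times in the Il4 window, 4 times in the Il13 window, 2 times in the Il5 window and 1 time in the Kif3a window, on both strands together. Among 32851 RefSeq start windows of the same length, 61.3% held at least 1 match, 26.7% held 2 or more, 2.65% held 4 or more and 0.728% held 5 or more. A downstream Il4 start in the same table (window chr11:53617289-53617588, not shown) had the NFAT core 1 time and GATA 3 times. The letters GATA, on either strand, occurred 1 time in each of the 3 cytokine windows shown and in none for Kif3a, against 57.9% of all windows with a match. The AP-1 letters TGANTCA were in none of the 4 windows and in 7.81% of all windows. The letters TATAAA or TTTATA were found in the Il13 window only, 31 and 29 bases before the start, where they overlap, and in 13.6% of all windows. Kif3a had 18 CG dinucleotides and 59.7% G and C, whereas Il4, Il13 and Il5 had 2, 3 and 4 CG dinucleotides and 38.0%, 46.0% and 40.0% G and C. The median over all windows was 7 CG dinucleotides. These matches describe letters only, and no binding was measured.

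T cells were cells with a Cd3 UMI (a UMI is 1 counted RNA molecule), no Cd79a UMI and no macrophage marking. The Tfh sort gave 1129, 1220 and 678 such cells from mice 1, 2 and 3, and the reporter sort 1228, 1062 and 1337. Cd3d was detected in 95.6% and 97.2% of them and Cd4 in 54.8% and 74.2%. Markers of mast cells and basophils, other cells that transcribe Il4 and Il13, were at or near 0: Cpa3 was seen in 0% and 0.0827% and Mcpt8 in 0% and 0.441% of T cells, and Fcer1a and Ms4a2 in none. Hdc, the histamine-synthesis gene that these cells also express, was seen in 66 and 304 T cells (2.18% and 8.38%). Of the 19 reporter-sort T cells with any of the other 4 markers, 12 had Hdc and 12 had Il4, and their part in the results was not tested. The median T cell held 2779 UMIs in the Tfh sort and 6733 in the reporter sort, so each cell was thinned at random to 2000 UMIs and shallower cells were left out. This left 914, 980 and 559 T cells of the Tfh sort, with 1134, 975 and 1219 of the other. No cell barcode was shared between the sorts.

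At 2000 UMIs per cell, Il4 was the locus transcript seen most widely in the Tfh sort and Il13 the one seen most widely by its mean in the reporter sort. At full depth Rad50 passed Il13 in each reporter-sort mouse (35.5%, 39.6% and 35.6% against 28.4%, 32.5% and 22.0% of T cells). Among Tfh-sort mice, 45.0%, 49.7% and 47.6% of T cells had an Il4 UMI at equal depth. Among reporter-sort mice, whose cells were chosen for Il4-driven GFP, the values were 8.82%, 8.72% and 8.20%. No mouse of either sort came near the other sort for Il4, and at full depth the shares were 53.0% ± 1.95 and 27.5% ± 2.17 (SD, n = 3 mice). Il13 went the other way, with 4.16%, 3.98% and 3.22% of Tfh-sort cells but 20.3%, 23.9% and 11.8% of reporter-sort cells. Mouse 3 of the reporter sort had the lowest Il13 share of its sort but remained above every mouse of the Tfh sort. Whether Il4 molecules of the reporter sort were lost where the GFP cassette joins the gene was not tested. Every Il4 count of the reporter sort below carries that limit.

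Il5 was seen in the fewest cells of the 5 transcripts. It was found in 4, 6 and 1 T cells of the Tfh sort (0.438%, 0.612% and 0.179%), and in 2.47%, 1.74% and 0.902% of the reporter sort's T cells. Rad50 was seen in 4.60%, 4.69% and 5.90% of T cells of the Tfh sort and in 10.9%, 16.7% and 10.8% in the reporter sort. Kif3a was seen in 1.86%, 2.55% and 1.43%, and in 3.17%, 2.97% and 4.02%. The order by share in the Tfh sort was Il4, Rad50, Il13, Kif3a and Il5, and no neighbours in that order overlapped over the 3 mice. For the reporter sort it was Il13, Rad50, Il4, Kif3a and Il5, where the ranges of Il13 and Rad50 overlapped and no other neighbours in that order did. This order is one of cells with the transcript at equal depth, in libraries that read transcript ends and are not scaled to gene length. By UMIs summed at full depth the T cells of the Tfh sort held 10084 of Il4, 1447 of Il13, 307 of Rad50, 189 of Il5 and 121 of Kif3a, so Il13 passed Rad50 and Il5 passed Kif3a.

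**Figure D2:**
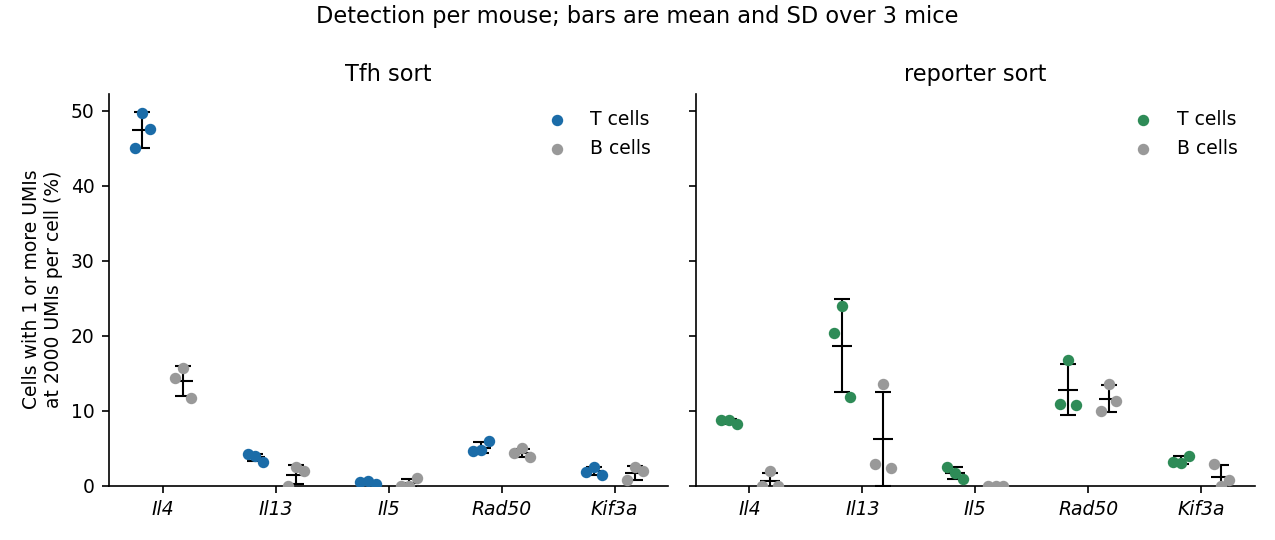
Share of cells (%) with 1 or more UMIs of each gene at 2000 UMIs per cell, for T cells and B cells of each sort; points are mice and bars the mean and SD over 3 mice. Il4 leads in the Tfh sort (47.4% ± 2.35) and Il13 in the reporter sort (18.7% ± 6.21).

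Cells with 2 or more Cd79a UMIs, which encode part of the B-cell receptor, served as the background for free RNA and for mixed droplets. At equal depth, 14.4%, 15.7% and 11.7% of B cells in the Tfh sort had an Il4 UMI, below the T cells of each mouse. Their Il13 shares were 0%, 2.48% and 1.94%, a range that lay below the T cells. Among B cells of the reporter sort, 2.86%, 13.5% and 2.42% had an Il13 UMI and 0%, 1.92% and 0% had an Il4 UMI, in each mouse less often than T cells. Il5 was seen in 0, 0 and 1 of 139, 121 and 103 B cells of the Tfh sort, shares that overlapped those of T cells. The reporter sort had it in 0 of 70, 52 and 124, which allows shares of up to 4.29%, 5.77% and 2.42%, above the T-cell values in each mouse. The Il5 share over all T cells was therefore not distinguishable from background at this depth. For Rad50 the B cells (10.0%, 13.5% and 11.3% in the reporter sort, 4.32%, 4.96% and 3.88% in the Tfh sort) overlapped the T cells in both sorts.

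Many of these B cells also carried T-cell RNA. A Cd3 UMI was present in 39.5% of them in the Tfh sort and 53.2% in the reporter sort. Among the 340 B cells of the Tfh sort without one, 7.35% had an Il4 UMI at full depth with a maximum of 2, where the maximum over all B cells was 32. Among the 117 such cells of the reporter sort, 11.1% had an Il13 UMI and none had more than 1, where the maximum over all B cells was 49. This split of the B cells was chosen after the values were seen. A single Il13 UMI in the reporter sort, or a single Il4 UMI in the Tfh sort, thus also occurs in cells of another lineage, while B cells with more than 2 UMIs of either gene all had a Cd3 UMI as well.

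The transcripts differed in how their molecules were spread over cells. The top 1% of T cells in the Tfh sort held 81.0%, 70.0% and 68.4% of all Il13 UMIs of a mouse, but 15.9%, 9.58% and 13.0% of its Il4 UMIs. Their counterparts in the reporter sort held 24.0%, 22.0% and 38.7% of Il13 UMIs. Il13 was thus carried by a few cells of the Tfh sort and by a broader group in the reporter sort. The Fano factor, the variance of UMIs over their mean, was 9.32, 6.41 and 6.99 for Il4 in the Tfh sort but 1.18, 1.18 and 1.21 among reporter-sort mice, where 1 is the value of random counting. For Il13 it was 19.4, 14.2 and 5.20 for Tfh-sort mice but 11.5, 10.4 and 7.15 for reporter-sort mice. Rad50 (0.996 to 1.29) and Kif3a (0.982 to 1.12) stayed near random counting in all 6 mice.

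High counts showed the same contrast. Cells with 10 or more Il4 UMIs at equal depth numbered 49, 54 and 24 in the Tfh sort and 0 in each mouse of the reporter sort. Cells with 10 or more Il13 UMIs numbered 8, 9 and 1 among Tfh-sort mice but 43, 26 and 11 among reporter-sort mice. At full depth the T cell with the most Il4 in the Tfh sort was also the one with the most Il13: it held 63 Il4, 123 Il13 and 13 Il5 UMIs. The 3 T cells with the most Il5 in that sort held 56, 36 and 24 Il5 UMIs beside 48, 23 and 37 Il13 UMIs and 35, 35 and 42 Il4 UMIs. The top Il13 cell of the reporter sort held 343 Il13 UMIs, 3 of Il4 and 0 of Il5. The cells richest in Rad50 and in Kif3a were 1 and the same reporter-sort cell, which held 40 and 12 of these UMIs among 160463 in all.

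**Figure D3:**
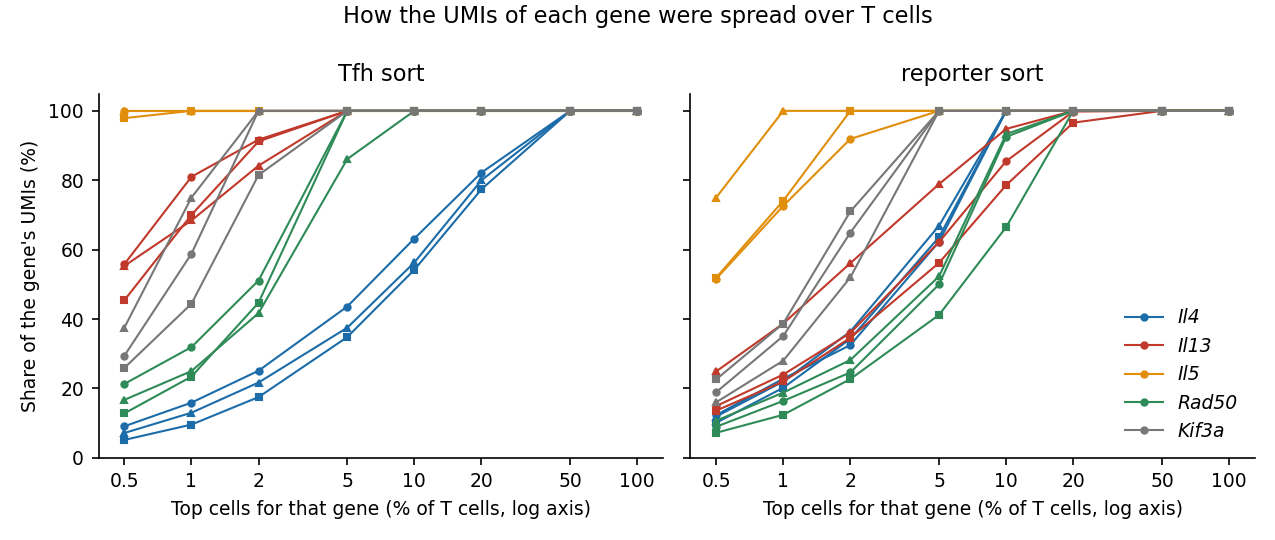
Share of each gene's UMIs (%) held by its top T cells, on a log x axis of the percentage of cells, with 1 line per mouse and gene at 2000 UMIs per cell. The Il13 lines of the Tfh sort reach 68.4% to 81.0% at the top 1% of cells, whereas those of the reporter sort are at 22.0% to 38.7%.

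Il4 and Il13 were found in the same cells more often than the product of their shares in both sorts. Tfh-sort T cells with both numbered 32, 33 and 12, where the product of the shares was 17.1, 19.4 and 8.57 cells. An Il13 UMI was present in 7.79%, 6.78% and 4.51% of Il4+ cells and in 1.19%, 1.22% and 2.05% of Il4− cells. All 3 mice had the higher share in Il4+ cells, a difference of 4.87 ± 2.15 percentage points (SD, n = 3 mice). Read from the other side, 84.2%, 84.6% and 66.7% of Il13+ cells also had Il4, against 43.3%, 48.2% and 47.0% of Il13− cells. Most Il13+ cells of the Tfh sort were therefore Il4+, while few Il4+ cells were Il13+. Among the B cells of that sort, 0, 3 and 1 held both Il4 and Il13, against 0, 0.471 and 0.233 for the product of the shares, so the few Il13+ B cells were mostly Il4+ as well. An exact sign-flip test over 3 mice cannot give a p below 0.25, so none is given for these differences.

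Reporter-sort T cells with both Il4 and Il13 numbered 35, 27 and 21, where the product of the shares was 20.3, 20.3 and 11.8. An Il13 UMI was present in 35.0%, 31.8% and 21.0% of Il4+ cells and, in mice 1 and 2, 18.9% and 23.1% of Il4− cells. In mouse 3 it was present in 123 of 1119 Il4− cells. That is a difference of 11.6 ± 4.00 percentage points. Here 15.2%, 11.6% and 14.6% of Il13+ cells had Il4, against 7.19%, 7.82% and 7.35% of Il13− cells. The ranges did not overlap, but unlike in the Tfh sort most Il13+ cells had no Il4 UMI at this depth. Il13+ cells of the reporter sort were also larger libraries before thinning, at a median of 11294, 11748 and 9558 UMIs, where Il13− cells held 6830, 6684 and 6694. The part of cell size in the result was not tested beyond equal depth. Without thinning the difference was 26.9 percentage points. With 2 or more UMIs required of both genes it was 19.0, −2.36 and 5.62 in mice 1, 2 and 3, so the direction turned in mouse 2. No B cell of the reporter sort held both genes at equal depth, but only 0, 1 and 0 of them had an Il4 UMI. That zero therefore gives no measure of background co-detection.

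Most Il5+ cells also held Il13. Of the Il5+ T cells of the reporter sort, 27 of 28, 15 of 17 and 9 of 11 had an Il13 UMI, where the product of the shares was 5.68, 4.06 and 1.30 cells. That is 96.4%, 88.2% and 81.8% of Il5+ cells, against 18.4%, 22.8% and 11.2% of Il5− cells. Il5 was seen in 11.7%, 6.44% and 6.25% of Il13+ cells and in 0.111%, 0.270% and 0.186% of Il13− cells, a difference of 7.95 ± 3.18 percentage points. Of those of the Tfh sort, 3 of 4, 4 of 6 and 1 of 1 had Il13, where the product was 0.166, 0.239 and 0.0322 cells, and the difference in Il5 share was 7.79 ± 2.24 percentage points. The direction was the same in all 6 mice, though the Tfh sort's value rests on 11 Il5+ cells. At full depth 1 of 4 Il5+ cells of mouse 3 of the Tfh sort had Il13, and 14 of 20 in mouse 3 of the reporter sort. Il5+ cells of the reporter sort were larger libraries before thinning, at a median of 14492, 17349 and 9403 UMIs against 7119, 7138 and 6845 in Il5− cells, and the part of cell size was not tested beyond equal depth.

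Il5 and Il4, the pair farthest apart among the cytokine genes, shared cells less clearly. Both were seen in 6, 3 and 3 T cells of the reporter sort, where the product of the shares was 2.47, 1.48 and 0.902. All 12 of them also held Il13. Il5 was seen in 6.00%, 3.53% and 3.00% of Il4+ cells and 2.13%, 1.57% and 0.715% of Il4− cells (2.70 ± 1.02 percentage points). With 2 or more UMIs required of both genes the difference was 7.26, −0.624 and −0.167 in mice 1, 2 and 3. For the Tfh sort 2, 5 and 1 cells held both against 1.80, 2.98 and 0.476, a difference of 0.430 ± 0.370 percentage points. Cells with all 3 cytokines numbered 2, 3 and 1 (Tfh sort) or 6, 3 and 3 (reporter sort).

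**Figure D4:**
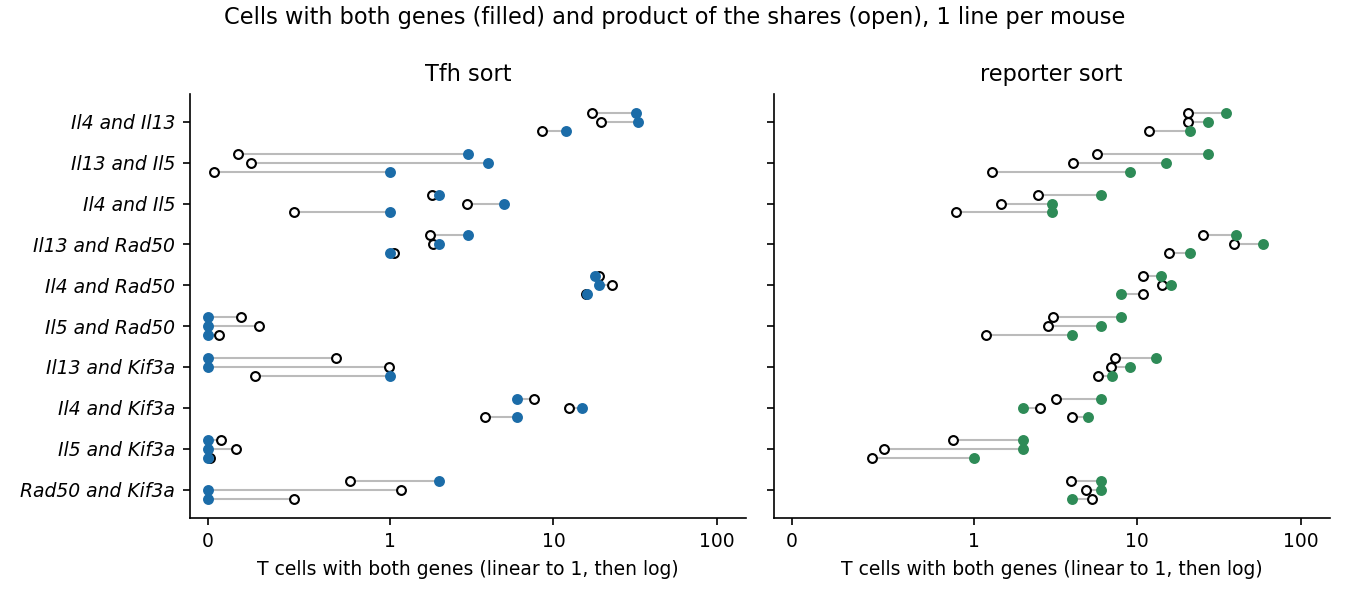
T cells at 2000 UMIs that held both genes of each pair (filled) and the product of the 2 shares (open), with 1 line per mouse, on an x axis that is linear to 1 and logarithmic above. The lines are long for Il13 and Il5, where 27, 15 and 9 reporter-sort cells stood against 5.68, 4.06 and 1.30. Rad50 with Il13 in that sort gave 40, 59 and 21 against 25.1, 39.0 and 15.6, and Rad50 with Il5 also lay above the product in each mouse.

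The partner shares were then read by the number of anchor UMIs in the cell. Among T cells of the Tfh sort, Il13 was seen in 1.40% of those with 0 Il4 UMIs, 1.71% with 1, 4.39% with 2 to 4, 7.37% with 5 to 9 and 28.3% of the 127 cells with 10 or more (all mice). Cells with 10 or more Il4 UMIs had Il13 in 34.7%, 27.8% and 16.7% of cases in mice 1, 2 and 3. Over all mice a single Il4 UMI thus went with nearly the same Il13 share as none, and the share rose from 2 to 4 UMIs on. With 1 Il4 UMI the mice had 1.38%, 0.621% and 3.85%, where those with 0 had 1.19%, 1.22% and 2.05%. In mouse 3 the share was 2.47% at 2 to 4 and 3.51% at 5 to 9. No cell of the reporter sort passed 4 Il4 UMIs, and there Il13 was seen in 17.2% of cells with 0, 29.0% with 1 and 29.5% with 2 to 4.

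Il5 followed the number of Il13 UMIs in the reporter sort. It was seen in 0.184% of cells with no Il13 UMI, 0.472% with 1, 5.67% with 2 to 4, 13.2% with 5 to 9 and 28.8% of the 80 cells with 10 or more. In that last class the mice had 30.2%, 23.1% and 36.4%. In the Tfh sort Il5 was seen in 7 of 18 cells with 10 or more Il13 UMIs (38.9%), in 1 of 10 with 5 to 9, and in 0 of 48 and 0 of 19 with 1 and with 2 to 4. Those zeros allow shares of up to 6.25% and 15.8%. Il5 was thus seen mainly beside high Il13 counts in both sorts, and no test was made between the sorts.

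**Figure D5:**
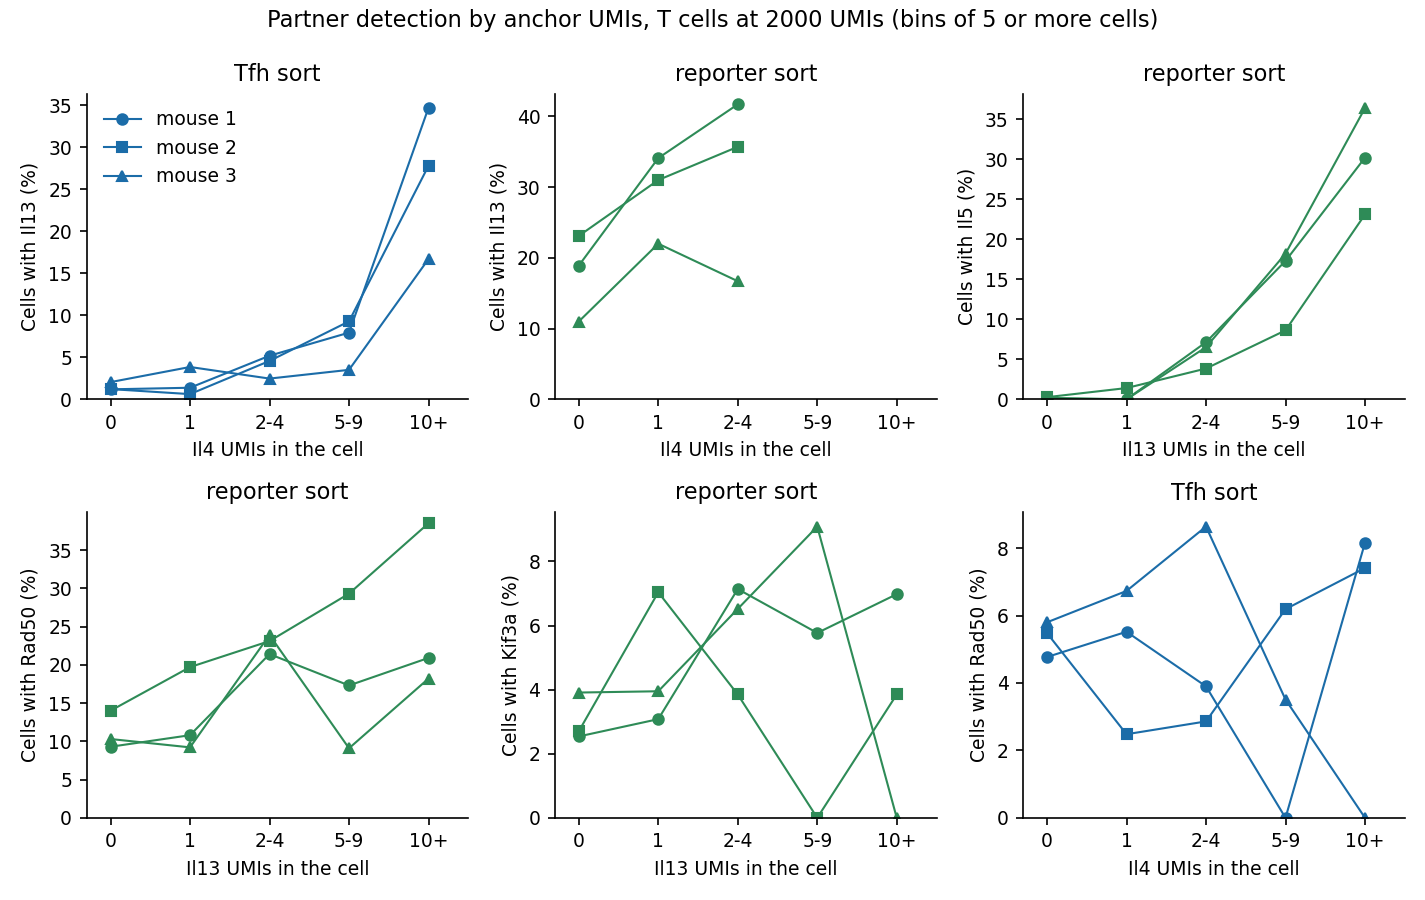
Share of T cells (%) with the partner gene by the number of anchor UMIs in the cell, at 2000 UMIs per cell, with 1 line per mouse and bins of 5 or more cells. Il13 in the Tfh sort was at 0.621% to 3.85% of cells with 1 Il4 UMI and reaches 16.7% to 34.7% at 10 or more; Il5 in the reporter sort reaches 23.1% to 36.4% at 10 or more Il13 UMIs.

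Among cells that held both genes, the amounts ran together for some pairs only. Spearman's rho between Il4 and Il13 UMIs was 0.43, 0.37 and 0.48 in the Tfh sort (32, 33 and 12 cells). It was -0.045, -0.32 and -0.011 in the reporter sort (35, 27 and 21 cells), where 241 of the 285 Il4+ cells held a single Il4 UMI. Between Il13 and Il5 in the reporter sort it was 0.36, 0.46 and 0.19 (27, 15 and 9 cells). Between Il13 and Rad50 it was -0.13, 0.11 and 0.076 (40, 59 and 21 cells). These cells share a mouse, a library and the same thinned depth, and the coefficients are descriptions.

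Of the non-cytokine members, Rad50 was seen more often with Il13 in all 3 mice of the reporter sort. It was present in 17.4%, 25.3% and 14.6% of Il13+ cells of the reporter sort and 9.29%, 14.0% and 10.3% of Il13− cells (7.89 ± 3.53 percentage points). By Il13 UMIs Rad50 was seen in 299 of 2721 cells at 0 and in 13.2% of cells at 1, 22.7% at 2 to 4, 22.3% at 5 to 9 and 26.2% at 10 or more, where the mice had 20.9%, 38.5% and 18.2%. Both were seen in 3, 2 and 1 cells of the Tfh sort, against 1.75, 1.83 and 1.06 for the product of the shares, a difference of 3.44, 0.452 and −0.359 percentage points. Without thinning that difference was 7.21, 7.71 and 11.1 in the same cells, and −0.431, 20.6 and 28.9 at 4000 UMIs. Rad50 with Il4 gave −0.585 ± 0.910 percentage points in the Tfh sort and 0.862 ± 3.46 in the reporter sort, both with mice on either side of 0. Rad50 was seen in 8 of 28, 6 of 17 and 4 of 11 Il5+ cells of the reporter sort, where the product of the shares was 3.06, 2.84 and 1.19.

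Kif3a, although it ends 1.01 kb from Il4, was seen with it in 6, 15 and 6 cells of the Tfh sort, against 7.64, 12.4 and 3.81 for the product of the shares. The difference was 0.633 ± 1.21 percentage points, and 1.16 ± 1.89 in the reporter sort. With Il13 it was 1.74 ± 1.19 percentage points in the reporter sort, where 13, 9 and 7 cells stood against 7.30, 6.93 and 5.79. In the Tfh sort Kif3a was seen in 0 of 38 and 0 of 39 Il13+ cells of mice 1 and 2, which allows shares of up to 7.89% and 7.69%, and in 1 cell of mouse 3. Rad50 and Kif3a were seen together in 2, 0 and 0 cells of the Tfh sort and in 6, 6 and 4 of the reporter sort, against 3.94, 4.85 and 5.31. Without thinning, the reporter-sort differences were much larger, at 27.9 points for Rad50 with Il13, 16.8 for Rad50 with Il4, 17.9 for Kif3a with Il13 and 14.5 for Kif3a with Il4.

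To place these values beside all other genes, UMIs were summed per mouse over cells with and without the anchor transcript and fitted with edgeR's quasi-likelihood test, with the mouse as a block. For Il4+ against Il4− cells of the Tfh sort, Il13 stood at 273, 208 and 48.9 CPM (UMIs scaled to a common total) against 17.9, 37.5 and 20.5. All 3 mice were higher in Il4+ cells, most in mice 1 and 2. The log2 change was 2.88 ± 0.20 (SE), with a Benjamini-Hochberg adjusted p of 3.5e-14 (7.6e-71 to 0.0489 over 10 alternatives). DESeq2 gave a wider SE, at 2.58 ± 0.70, and the adjusted p of 0.0489. In that comparison 0.746% of 6432 genes rose and 1.03% fell, and Il13 was the only member called of the 3 tested. Rad50 had a log2 difference of −0.40 ± 0.25 (edgeR adjusted p = 0.677) and Kif3a 0.34 ± 0.42 (edgeR adjusted p = 0.892). Il5 was too rare for the fit, with 51 UMIs in 1164 Il4+ cells and 11 in 1289 Il4− cells. Where other settings let it be tested it was called, with log2 changes of 2.26 with no low-count filter, 2.74 with unthinned sums and 2.17 without mouse 3 (edgeR adjusted p of 1.3e-05, 5.3e-11 and 8.3e-05). At equal depth the Il5 UMIs lay in 4, 6 and 1 T cells, with up to 22 in 1 cell. These p-values take no account of that clustering. Counted by cells, 8 held both Il4 and Il5, where the product of the shares was 5.26.

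For Il13+ against Il13− cells of the Tfh sort, Il4 stood at 5184, 3949 and 2222 CPM against 799, 918 and 908. The groups did not overlap, and the log2 change was 2.03 ± 0.14 (edgeR adjusted p = 1.3e-16, 1.6e-101 to 4.6e-04 over 10 alternatives). Il5 had 59 UMIs in 95 Il13+ cells and 3 in 2358 Il13− cells. Per cell that is a ratio of 488 with a 95% counting interval of 159 to 2435, which takes no account of UMIs clustering in few cells. The edgeR adjusted p was 2.5e-19 (7.9e-152 to 5.2e-05 over 10 alternatives). Of 5261 genes tested, 0.855% rose and 0.190% fell, and both cytokine members were among those that rose. Rad50 differed by 0.21 ± 0.68 on the log2 scale (edgeR adjusted p = 0.981), and Kif3a was not tested.

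For the same contrast in the reporter sort, Il13 stood at 1375, 1106 and 625 CPM in Il4+ cells and 495, 529 and 134 in Il4− cells. It was higher in each mouse, with a log2 change of 1.52 ± 0.12 (edgeR adjusted p = 5.4e-11). Of 7044 genes, 1.02% rose and 0.0852% fell. With Il4+ cells defined by 2 or more UMIs, the Il13 change was 0.61 and the edgeR adjusted p 0.441, the highest over 10 alternatives, from 44 such cells. Il5 stood at 75.0, 41.2 and 15.0 CPM against 22.7, 11.2 and 5.81, from 25 and 80 UMIs, and rose by 1.71 ± 0.38 (edgeR adjusted p = 0.0115), but this call was lost under 4 of 9 alternatives (adjusted p of 3.3e-07 to 0.92 over all 9). It was 0.192 without the mouse as a block, 0.338 without mouse 1 and 0.291 without mouse 2. Rad50 (−0.024 ± 0.24) and Kif3a (0.54 ± 0.46) gave edgeR adjusted p of 0.993 and 0.846.

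Il13+ cells of the reporter sort differed from Il13− cells in far more genes: 12.2% of 7113 rose and 10.9% fell. All 4 other members had positive log2 differences, and 3 of them were called, against this high background. Il4 stood at 89.1, 68.7 and 83.3 CPM against 40.4, 45.1 and 43.7, without overlap (log2 change 0.88 ± 0.19, edgeR adjusted p = 5.1e-04, at most 0.0486 over 10 alternatives). Il5 had 100 UMIs in 607 Il13+ cells and 5 in 2721 Il13− cells (log2 change 6.21 ± 0.40, edgeR adjusted p = 1.3e-15, at most 2.5e-06 over 10 alternatives). Rad50 stood at 91.3, 155 and 76.4 CPM against 50.9, 82.2 and 59.1, higher in each mouse although mouse 3's Il13+ cells lay below mouse 2's Il13− cells. Its log2 change was 0.74 ± 0.16 (edgeR adjusted p = 5.8e-04), a call that DESeq2 did not make (adjusted p = 0.07, where the 10 alternatives ran from 1.3e-06 to 0.07). Kif3a differed by 0.72 ± 0.34 (edgeR adjusted p = 0.119, 9.0e-04 to 0.575 over 10 alternatives).

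Il5+ cells of the reporter sort carried Il13 at 5607, 5029 and 4364 CPM, against 445, 500 and 137 in Il5− cells. The log2 change was 3.56 ± 0.23 (edgeR adjusted p = 3.3e-48, at most 1.7e-11 over 9 alternatives). Of 6920 genes, 0.882% rose and 2.27% fell, around a median of −0.41, from sums over 28, 17 and 11 Il5+ cells. With RLE size factors that median was −0.24 and the split was 93 higher and 108 lower in place of 61 and 157, so differences in this comparison are read relative to the median. Il4 (1.11 ± 0.52, edgeR adjusted p = 0.326), Rad50 (1.00 ± 0.42, 0.228) and Kif3a (1.35 ± 0.89, 0.547) did not pass.

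The locus transcripts other than Kif3a were also unevenly placed among reporter-sort T cells marked by other genes. Tfh-marked cells held a UMI of Cxcr5, Sostdc1 or Bcl6 and none of Il1rl1 (the IL-33 receptor), Cxcr6 or Plac8; effector-marked cells held the reverse. Reporter-sort cells had Il13 in 61.3%, 55.4% and 39.2% of the effector-marked and 6.12%, 5.37% and 3.75% of the Tfh-marked. Il5 was seen in 9.31%, 4.30% and 5.60% against 0%, 0.671% and 0%. Il4 differed less, at 17.6%, 13.4% and 14.4% against 5.61%, 8.72% and 6.48%. The groups did not overlap for any of the 3 cytokines or for Rad50. They did overlap for Kif3a (3.92%, 3.76% and 3.20% against 1.53%, 5.37% and 2.73%). Among Tfh-sort cells the 26, 30 and 10 effector-marked cells had Il13 in 42.3%, 26.7% and 10.0%, against 1.98%, 4.05% and 3.68% of the Tfh-marked, while Il4 overlapped (61.5%, 53.3% and 30.0% against 51.6%, 53.9% and 50.5%).

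Because the pairs could meet through these classes, the product of the shares was also taken within each marker class and summed, a step chosen after the values were seen. For Il4 with Il13 in the Tfh sort, 77 cells held both, where the products came to 45.1 over all T cells and 46.8 within classes. For the reporter sort, 83 cells held both, where they came to 52.4 and 67.3. The excess over the product was thus nearly as large within classes in the Tfh sort and smaller in the reporter sort. For Il5 with Il13 in the reporter sort 51 cells stood against 22.0 within classes, and in the Tfh sort 8 against 0.437 over all T cells and 2.06 within classes. For Rad50 with Il13 in the reporter sort 120 stood against 79.7 and 87.9. Thinned markers miss many cells, so these classes are only partly separated.

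Regulators of the locus were taken from a list of 22 genes. Of 20 tested in the Tfh sort, 1 rose in Il4+ cells and none fell: Gata3, the lineage factor of Th2 cells, stood at 150, 124 and 158 CPM against 111, 87.2 and 102 (log2 change 0.50 ± 0.12, edgeR adjusted p = 0.0178). The list's median was 0.041, beside −0.001 over all genes tested, of which 0.746% rose and 1.03% fell. With Il13, 0 of 19 passed in the Tfh sort (median 0.16, all genes −0.081), where 0.855% of all genes tested rose and 0.190% fell. In the reporter sort Gata3 rose with Il4 by 0.79 ± 0.13 (edgeR adjusted p = 1.7e-04), and 2 of the other 19 tested also rose: Junb, an AP-1 subunit, and Rbpj, the DNA-binding factor of Notch signalling (list median 0.12, all genes 0.006). Of all genes tested there, 1.02% rose and 0.0852% fell. With Il13, 5 of 20 rose and 4 fell, where 12.2% of all genes tested rose and 10.9% fell (median −0.095, all genes −0.016). Gata3 stood at 533, 453 and 382 CPM in Il13+ cells against 176, 162 and 164 (1.43 ± 0.098, edgeR adjusted p = 6.9e-15), and Rbpj rose by 1.75 ± 0.14. Satb1, a chromatin organiser described at this locus, fell by 0.75 on the log2 scale. With Il5, 1 of 20 rose (Rbpj, 1.40) and 2 fell, Satb1 by 2.02 and Maf, an activator of Il4, by 1.27 (median −0.44, all genes −0.41). In Il5+ cells Rbpj, Satb1 and Maf had 32, 7 and 24 UMIs. Of all genes tested with Il5, 0.882% rose and 2.27% fell.

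Of 8 cytokine receptor genes listed, few were abundant enough to test. None of 3 passed with Il4 or with Il13 in the Tfh sort. Of 4 in the reporter sort, 1 rose with Il4: Il2ra, the high-affinity IL-2 receptor chain (1.34 ± 0.26, edgeR adjusted p = 0.00194). With Il13, 2 of 4 rose: Il2ra by 2.14 ± 0.19 (edgeR adjusted p = 1.6e-11) and Il1rl1 by 3.15 ± 0.27 (2.8e-12). The same 2 rose with Il5, by 2.71 each, from 33 Il2ra and 20 Il1rl1 UMIs in Il5+ cells. The Il5+ cells of mouse 3 held 1 Il1rl1 UMI. Among all genes tested the shares that rose were 1.02% with Il4, 12.2% with Il13 and 0.882% with Il5. None fell in any of these comparisons. The list's medians were −0.26 and 0.46 with Il4 and Il13 in the Tfh sort and 0.64, 1.27 and 1.19 with Il4, Il13 and Il5 in the reporter sort, where those of all genes were −0.001, −0.081, 0.006, −0.016 and −0.41 in the same order. Il1rl1 is also one of the effector markers.

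Beyond the 5 members, 18 further genes of the same chromosome stretch were listed. Il3, a haematopoietic cytokine gene whose start lies 633 kb from that of Il13, stood at 2237, 1231 and 139 CPM in Il13+ cells of the Tfh sort and 8.56, 9.56 and 1.85 in Il13− cells. The groups did not overlap, and the log2 change was 7.43 ± 0.23 (edgeR adjusted p = 5.3e-33). With Il4 it was 208, 116 and 13.2 against 13.9, 1.01 and 0 (4.43 ± 0.27, edgeR adjusted p = 1.0e-15). The Il4+ cells of mouse 3, with 7 Il3 UMIs, lay below the Il4− cells of mouse 1, and no other of the 6 neighbours tested passed there (median 0.25). Of all genes tested in the Tfh sort, 0.746% rose with Il4 and 0.855% with Il13. With Il13, 2 of 6 passed, Il3 and Zcchc10, a zinc-finger gene (2.07 ± 0.51, edgeR adjusted p = 0.0189, from 17 UMIs in Il13+ cells), and the list's median was −0.14. For the reporter sort, 0 of 7 passed with Il4 (median 0.34) and 6 of 9 rose with Il13, against the background of 12.2%, with a median of 1.12. Among them were Csf2, which encodes GM-CSF (3.76 ± 0.29, edgeR adjusted p = 2.0e-13), Il3 (2.86 ± 0.22, 2.3e-13) and Hspa4, a chaperone gene (0.79 ± 0.12, 1.2e-06). With Il5, 2 of 7 rose, Aff4 (1.23 ± 0.36) and Csf2 (2.05 ± 0.64, higher in 2 of 3 mice), around a median of 1.23, where 0.882% of all genes rose around a median of −0.41. Irf1, 135 kb from Il13, passed in none of the 5 comparisons.

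The genes detected most in the same cells as each cytokine were ranked by the phi coefficient of detection (the correlation of having a UMI), averaged over the 3 mice of a sort, with cells sharing mouse, library and thinned depth. For Il4 in the Tfh sort they were Cd40lg, the CD40 ligand of B-cell help (0.15), Tnfsf8 (0.14), Furin (0.12), Areg (0.12) and Egr2 (0.11), and Il13 itself ranked 3rd of 7983 genes (0.13). For Il13 they were Il3 (0.28), Ccl1, a T-cell chemokine gene (0.20), Hilpda (0.18), Igfbp7 (0.16) and Plac8 (0.16), with Il4 9th. Plac8 is one of the effector markers used above. For Il5, on 11 positive cells, Il3 (0.40) and Ccl1 (0.21) led again, followed by Igfbp7 (0.17), Plin2 (0.17) and Zfp335 (0.16), and Il13 ranked 2nd (0.24). The last 3 means rest largely on mouse 3 with its 1 Il5+ cell: Zfp335 gave −0.0076, −0.0087 and 0.50 in mice 1, 2 and 3, Plin2 0.11, −0.0080 and 0.41, and Igfbp7 0.17, −0.0094 and 0.35.

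In the reporter sort the highest values for Il4 were low: Ccl1 (0.11), Il10 (0.099), Hdc (0.098), Furin (0.097) and Lgmn (0.095) led, and Il13 ranked 15th of 8476 (0.085). At this depth Il4 was seen in 8.56% of T cells, mostly as a single UMI, and Il13 in 18.2%. Sparse detection limits phi, so the values of the 2 genes are not directly comparable. Il13 had much higher values, with Ccl1 (0.45), Ltb4r1, a leukotriene B4 receptor (0.43), Hilpda (0.38), Vim (0.34) and Plac8 (0.30), and Il4 only 327th. For Il5 the leading genes were Ltb4r1 (0.26), Ccl1 (0.17), Phlda1 (0.17), Ier3 (0.17) and Hilpda (0.16), with Il13 2nd (0.24). Rad50 ranked 5911th and 2880th for Il4 in the Tfh and reporter sorts, 2246th and 272nd for Il13, and 6496th and 75th for Il5. With Rad50 as the anchor, Il13 ranked 2513th in the Tfh sort and 8th in the reporter sort, where Il5 ranked 24th. The named genes that led for Rad50 in the reporter sort were Mki67 (0.11), Dut (0.097), Vim (0.097), Pttg1 (0.095) and Pparg (0.095). Il13 had 0.093 there. Kif3a ranked 1271st and 1453rd for Il4 and 3566th and 1236th for Il13. For Il13 in the reporter sort Il5 ranked 19th (0.24). Seen in 0.448% of T cells in the Tfh sort, it was under the 1% needed for a rank there.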

How the data were processed

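Each deposited matrix gives raw counts: UMIs per gene for the RNA libraries, tags per antibody for the hashtag libraries. Per the submitters' processing notes, reads passed through bcl2fastq (2.18.0.12 and 2.20.0.422) and Cell Ranger 2.2.0, with mm10 or GRCm38 as the build. The header of the reporter-sort matrix gives version 3.0.2 instead. The annotation release is not given in the sources used here. Per the labels, 12000 cells (4000 per mouse) were loaded in 1 lane per sort, and hashtags 3 to 6 were named, of which 3 held counts.

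A minimum of 500 genes and a maximum of 10% mitochondrial UMIs per cell kept 3916 of 3956 barcodes in the Tfh sort and 4585 of 7646 in the reporter sort. A mouse was assigned where its hashtag had 10 or more counts and 3 times the second (3780 and 3989 cells). This removes doublets between mice, not within a mouse, and no doublet caller was run. Symbols that occurred more than once (67) were summed. Whether molecules were lost where the GFP cassette joins Il4 was not tested.

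Cells were thinned to 2000 UMIs with Python 3.11.15, numpy 2.4.6, scipy 1.17.1 and pandas 2.3.3. Shares were compared within each mouse. Exact binomial 95% intervals and limits from a count of 0 (3 counts over the cells) cover counting error only. Sums of 10 or more cells per mouse were fitted with edgeR 4.0.16 in R 4.3.3: TMM, filterByExpr at a minimum count of 10, quasi-likelihood, 6 sums, 2 residual degrees of freedom, Benjamini-Hochberg at 0.05 over all genes tested. The mouse entered as a block because both sums come from the same animal. The gene that defined the classes is not a result. The fits were tested on simulated data. DESeq2 1.42.0 and other scalings, filters, depths, cell sets and left-out mice were alternatives.

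Members, gene lists and tests were chosen with earlier results of these data known. The text names the 5 members, up to 4 called genes per list, and the 5 genes with the highest phi per cytokine and sort among genes in 1% or more of T cells, passing over unnamed, ribosomal and mitochondrial genes. Irf1, the count of Hdc in T cells, the groups of B cells without Cd3 and the genes leading for Rad50 were named after their values were seen.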

Additional observations from a re-analysis of the deposited data

Results flagged for a closer look

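Cytokine transcripts also appeared in cells that entered no comparison. In the Tfh sort 77 of 136 cells with no assigned mouse had an Il4 UMI at full depth (56.6%, exact binomial 95% interval 47.9 to 65.1), against 16.4% of B cells. Of these cells 89.0% had a Cd3 UMI. Of 180 cells of no marker class in that sort, 49.4% had an Il4 UMI and 75.6% a Cd3 UMI. In the reporter sort 106 of 596 cells with no assigned mouse had an Il4 UMI (17.8%, 14.8 to 21.1), against 7.20% of B cells, and 91.8% had a Cd3 UMI. Of 18 macrophage-marked cells in the reporter sort, 6 had an Il4 UMI (33.3%, 13.3 to 59.0) and 6 an Il13 UMI, and 66.7% had a Cd3 UMI.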

How the results depend on the processing

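The 154 alternative values of the co-detection differences are means over mice. Of these, 134 moved by less than the SD over mice and 13 had the other sign, all of them for Rad50 or Kif3a. The 134 include every value with 1 mouse left out, which by arithmetic cannot move by that much. Rad50 with Il13 in the Tfh sort ran from -0.327 to 16.4 around 1.18 and Rad50 with Il4 in the reporter sort from -1.88 to 16.8 around 0.862. Il5 with Il13 in the Tfh sort was 13.3 percentage points at 4000 UMIs and 16.1 with 2 or more UMIs required, in place of 7.79. Il5 with Il4 in the Tfh sort was 1.07 at 4000 UMIs, in place of 0.430. In the reporter sort Il13 with Il4 was 26.9 at full depth and 7.41 with 2 or more UMIs (below 0 in mouse 2). Il5 with Il4 in that sort was 5.03 at full depth and 1.39 at 1000 UMIs. It was below 0 in mice 2 and 3 with 2 or more UMIs, and in mouse 2 at 4000 UMIs. Counts of called genes depended more on the choices. Of 114 genes called with Il4 in the Tfh sort, DESeq2 called 17. The fit without the mouse as replicate block called 53, sums of unthinned counts 338, and the set without CD8-marked and Foxp3-marked cells 53. With Il13 in the Tfh sort (55), DESeq2 called 33, no low-count filter 140, no replicate block 89 and unthinned sums 232. With Il4 in the reporter sort (78) the same settings called 40, 127, 39 and 406, and 12 with 2 or more UMIs. With Il13 in the reporter sort (1640) DESeq2 called 602 and unthinned sums 4543. With Il5 (218) DESeq2 called 86, no replicate block 371 and unthinned sums 511. The cause of these changes was not tested. Leaving out 1 mouse gave 17 to 27 genes with Il13 in the Tfh sort (17, 19 and 27 without mice 1, 2 and 3), and 30 to 61 with Il4 in the reporter sort (30 without mouse 2). It gave 963 to 1308 with Il13 in the reporter sort (963 and 1017 without mice 1 and 2) and 64 to 204 with Il5 (81 and 64 without mice 1 and 2). Of 167 alternative log2 changes of members, 158 stayed on their side of the threshold, 6 lost the call and 3 gained it. In 3 the sign turned, none of them called: Rad50 with Il13 in the Tfh sort without mouse 1 (-0.16), and Rad50 with Il4 in the reporter sort with unthinned sums (0.052) and without mouse 3 (0.12). The 3 that gained a call did so with unthinned sums: Kif3a with Il13 (adjusted p = 9.0e-04), and Il4 and Rad50 with Il5 (0.0192 and 0.00662), all by edgeR in the reporter sort. Il5 with Il4 in the Tfh sort, which the low-count filter removed, is not among the 167. The setting of 2 or more UMIs was not run for Il5, where mice 2 and 3 had 6 and 2 such cells, under the 10 needed per sum. With Il13 in the Tfh sort mouse 3 had 5 such cells, so that setting left mouse 3 out. Depth limits Rad50, Kif3a and the reporter sort's Il4, where most positive cells held 1 UMI, and Il5, which few cells held.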
